A study of Rattus norvegicus with 6 samples.

Results

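The array carries probes for 7 named non-coding RNA genes of the rat other than H19: Rpph1, Terc, Gas5, Abhd11-as1, AA926063, 2810025M15Rikl and Chchd4l1. They were chosen as the non-control probes that carry a RefSeq non-coding RNA accession which maps to one of these symbols. Each gene had 1 probe, printed at 3 positions of every array, so 7 of the 27 probes with such an accession, 7 of the 20 of them with a symbol, and 7 of 24681 probes in all, are described here. Probes with a symbol stood for 13900 genes in all. Adult islets came from male rats, 1 rat per array, and the younger islets came from pools of rats at postnatal day 10 (P10), with 3 arrays at each stage. The labels state neither an adult age nor the sex of the younger rats, and name no strain, treatment or genetic change. Islets had been freed from the pancreas with collagenase, and their RNA was read in 1 colour on an Agilent array whose probes cover mRNAs and lncRNAs, the long non-coding RNAs.

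These genes work in different ways. RNase P, whose RNA subunit is Rpph1, trims the 5′ ends of transfer RNA precursors, and the related RNase MRP acts on ribosomal RNA precursors with most of the same proteins. Terc is the RNA template that telomerase reverse transcriptase copies onto chromosome ends. Gas5 hosts C/D box small nucleolar RNAs in its introns, its spliced RNA is degraded by nonsense-mediated decay, and in human cells it can bind the glucocorticoid receptor. Abhd11-as1 lies beside the hydrolase gene Abhd11 in the region whose human counterpart is lost in Williams-Beuren syndrome, and Chchd4l1 is named after Chchd4, the import receptor for small cysteine-rich proteins of the mitochondrial intermembrane space. No role is given here for AA926063 or 2810025M15Rikl.

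The gene table of the GRCr8 assembly classes Terc as a telomerase RNA and Gas5, Abhd11-as1, AA926063, 2810025M15Rikl and Chchd4l1 as lncRNAs. It lists the entry named Rpph1 with the synonyms Rmrp and Rmrp1 and the class RNase MRP RNA, with a span of 257 bases, inside the span of Parp2. Which of these related RNAs the probe measures is not settled by the table, and the gene is called Rpph1 below as the array accession maps to it. Probe sequences were not used here, so whether a probe also binds a related transcript was not tested.

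Promoter sequences of RefSeq on GRCr8 were held for 4 of the 7 genes and are shown because they differ in the short motifs they carry. Each runs 5′ to 3′ on the plus strand, from 250 bases before the annotated start through the first 50 bases of the gene. Capitals mark matches, on either strand, to a GC box (GGGCGG), the cAMP response element (TGACGTCA) or its shorter core (TGACG), an E box (CANNTG), or a CCAAT box (CCAAT). The sequences stand at chr13:75836713-75837012 for Gas5, chr12:27317406-27317705 for Abhd11-as1, chr13:72102797-72103096 for 2810025M15Rikl and chrX:62690140-62690439 for Chchd4l1.
Gas5: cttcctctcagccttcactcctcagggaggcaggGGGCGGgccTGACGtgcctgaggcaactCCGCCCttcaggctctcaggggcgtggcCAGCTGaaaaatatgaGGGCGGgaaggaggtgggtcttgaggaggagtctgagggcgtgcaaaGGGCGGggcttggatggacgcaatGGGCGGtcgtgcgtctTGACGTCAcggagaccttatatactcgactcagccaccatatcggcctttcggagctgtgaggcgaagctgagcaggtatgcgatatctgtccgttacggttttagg
Abhd11-as1: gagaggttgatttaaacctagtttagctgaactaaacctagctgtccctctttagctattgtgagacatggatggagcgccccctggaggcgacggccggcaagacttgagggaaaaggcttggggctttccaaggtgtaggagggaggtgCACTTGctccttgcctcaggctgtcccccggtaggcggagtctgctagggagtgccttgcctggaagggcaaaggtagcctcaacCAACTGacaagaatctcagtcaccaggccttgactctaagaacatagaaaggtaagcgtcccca
2810025M15Rikl: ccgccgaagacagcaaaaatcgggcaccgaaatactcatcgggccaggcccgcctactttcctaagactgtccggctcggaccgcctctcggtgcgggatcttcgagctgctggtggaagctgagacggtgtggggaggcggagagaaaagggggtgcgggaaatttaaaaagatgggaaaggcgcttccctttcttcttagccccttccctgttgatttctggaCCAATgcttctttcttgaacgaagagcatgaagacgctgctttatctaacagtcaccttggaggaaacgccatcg
Chchd4l1: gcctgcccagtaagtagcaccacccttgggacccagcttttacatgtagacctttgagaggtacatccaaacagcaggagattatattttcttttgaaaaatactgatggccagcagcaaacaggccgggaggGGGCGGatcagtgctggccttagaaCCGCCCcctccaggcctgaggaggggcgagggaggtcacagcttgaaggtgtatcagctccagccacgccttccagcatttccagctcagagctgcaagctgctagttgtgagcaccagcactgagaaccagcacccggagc

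The Gas5 promoter held 5 GC boxes, at positions -216, -188, -144, -97 and -73 from the start. It also held the complete TGACGTCA at -57, which overlaps 2 of its 3 matches to TGACG, and an E box at -160. Across 33469 promoters of the same length, 33.1% held at least 1 GC box, 1.83% held TGACGTCA and 21.2% held TGACG. Chchd4l1 had 2 GC boxes, at -117 and -92, and Abhd11-as1 had 2 E boxes, at -99 and -14, a motif that 72.1% of all promoters hold. The 2810025M15Rikl window had a CCAAT box at -25, as did 37.5% of all promoters somewhere in theirs. No match to TATAAA lay in any of the 4 windows (14.2% of all promoters held one). The guanine and cytosine content was 60.3% for Gas5, 56.0% for Chchd4l1, 54.7% for 2810025M15Rikl and 54.3% for Abhd11-as1, against a median of 51.7% over all promoters. These matches describe letters in a window and were not tested as binding sites.

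Levels are log2 signals relative to the 75th percentile of the same array, and changes are adult minus P10 on that log2 scale, given with their standard error (SE). Each p is from limma, with Benjamini-Hochberg adjustment over 18355 probes tested. Between 17823 and 18725 probes per adult array and between 17908 and 18495 per P10 array were well above background, and 0 spots were saturated. Adult arrays 2 and 3 differed by 1.12 times the variance expected from the spread of spots within arrays, and P10 arrays 1 and 2 by 1.02 times, over 1777 probes printed 3 times. For the remaining pairs this ratio was 36.6 and 36.7 among adult arrays, and 1.40 and 2.10 among P10 arrays. Each of the 2 close pairs was averaged and counted as 1 sample, which leaves n = 2 per stage. The p-values rest only on the spread between such samples, which limma draws for each probe toward that of all probes tested. The number of arrays limits the precision. Arrays with the same scan date were taken to share a slide. On that basis slide 1 carried adult array 1 with all P10 arrays, while adult arrays 2 and 3 were on slide 2. The gap between adult array 1 and the others therefore cannot be told apart from a gap between slides.

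Markers of other cells moved between the stages on the same arrays. Each summed level is the sum of a list's signals relative to the 75th percentile. All 12 enterocyte markers measured were lower in adults, with a summed level of 9.98 to 10.7 on adult arrays and 344 to 360 on P10 arrays, and Apoa4 was not well above background on any adult array. Of 11 acinar markers 9 were lower (5 lower and 1 higher with quantile normalization), at 475 to 689 in adults and 1432 to 1525 at P10. Of 8 markers of cycling cells 6 were lower and 0 higher, at 13.3 to 14.5 in adults and 24.2 to 25.0 at P10. All 12 leukocyte markers were higher in adults, at 68.9 to 79.3 against 9.49 to 13.9 at P10, where none of the 3 arrays had Cd79b or Itgam well above background. Of 9 beta cell markers 6 were higher and 1 lower (7 higher and 0 lower with quantile normalization), with a median change of 2.87 and a summed level of 283 to 387 in adults and 331 to 367 at P10. Of 6 alpha cell markers 4 were higher and 2 lower (1 lower with quantile normalization), at 145 to 206 in adults and 166 to 173 at P10. The part of these cells in the changes below was not tested, and in whole islets fewer cells of a type and less RNA per cell cannot be told apart.

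Of the 7 non-coding RNAs, 5 were lower and 1 was higher in adult islets, and AA926063 did not pass the test. Among all probes tested, 52.4% passed, 31.0% as lower (5699 probes) and 21.3% as higher (3912 probes). With each array centred on its median, 4638 were lower and 5087 higher, and without scaling 2046 were lower and 10751 higher. The median change of all probes was -0.02 with quantile normalization, 0.07 with median centring and 0.97 without scaling. The median change of the 7 genes was -2.17, against -0.23 over all probes tested and -0.45 over 4940 tested probes of the authors' lncRNA table, of which 48.4% passed and 33.3% were lower. The array values of the stages did not overlap for any of the 7 genes, which was also so for 77.9% of all probes tested, and for 45.8% with the adult arrays below, as in 5 of the 7.

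**Figure D1:**
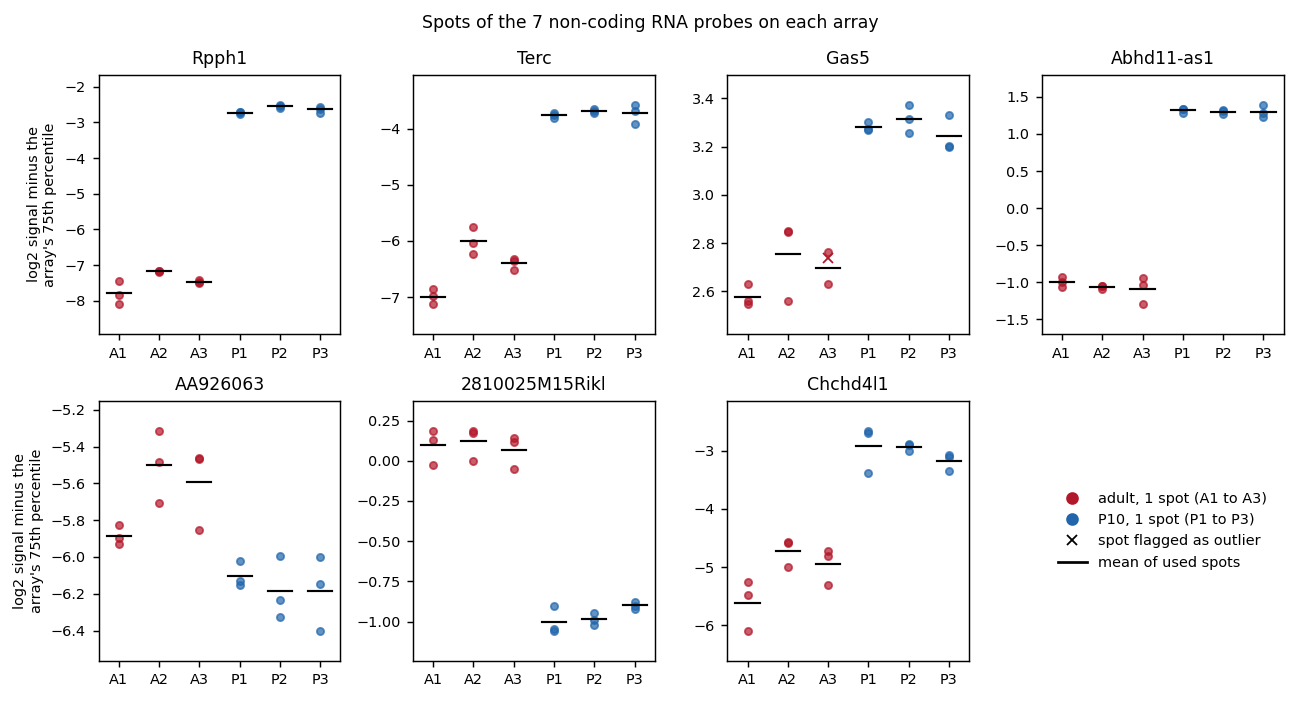
Each panel plots 1 gene, with log2 signal minus the array's 75th percentile on the vertical axis (scaled per panel) and the adult arrays A1 to A3 left of the P10 arrays P1 to P3; points are spots, bars are means of the spots used, and the cross is a spot flagged as an outlier and left out. In all 7 panels the 3 adult bars and the 3 P10 bars do not overlap, and only AA926063 and 2810025M15Rikl stand higher in adults.

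Rpph1 showed the largest change of the 7 genes. Its level was -7.79, -7.17 and -7.46 on the adult arrays, against -2.73, -2.54 and -2.64 on the P10 arrays. All adult arrays lay far below all P10 arrays, and the gap between stages was several times the range within either. The adult mean was -7.55 ± 0.34 (SD, n = 2) and the P10 mean -2.64 ± 0.0014 (SD, n = 2), which gave a change of -4.92 (SE 0.21, limma adjusted p = 0.00135). With normexp, another background correction, it was -2.43 (limma adjusted p = 0.0235).

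In adults the Rpph1 probe lay close to background. It was well above background on 1 of 3 adult arrays, array 2, with 3 of 3 spots there, 1 of 3 on array 1 and 0 of 3 on array 3. Its processed signals before scaling were 11.8, 14.2 and 11.0 on adult arrays and 154, 166 and 161 on P10 arrays, where all spots were well above background. The lowest signal that counted as well above background on an array was 7.20 to 9.45 in adults and 6.60 to 7.86 at P10. The adult level is thus measured near the limit of the array, and no fold is given.

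Spot by spot, Rpph1 differed by -4.86, -4.89 and -4.77 at its 3 printed positions. The 9 adult spots ran from -8.10 to -7.15 and the 9 P10 spots from -2.75 to -2.50, without overlap. On slide 1 alone the change was -5.16, a fit in which the 1 adult array is taken to vary like the P10 arrays. With slide as a block over all 6 arrays the value is the same by design, for every gene measured on all arrays. Slide 2 holds adult arrays only and so adds nothing to the contrast, and the block is not a second check.

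How many proteins of RNase P and RNase MRP passed depended on the setting. Of 10 measured, 0 were higher, 3 were lower and 7 did not pass as reported, with a median change of -0.11. Over all probes tested, 52.4% passed. With normexp 0 of the 10 were higher and 2 were lower. Rpp21, a subunit of RNase P, had 1.62, 1.79 and 1.83 on adult arrays and 3.46, 3.45 and 3.38 on P10 arrays, a change of -1.70 (SE 0.15, limma adjusted p = 0.00317). Rpp38, a subunit of both enzymes, was lower by a change of -0.89 and Pop5, also of both, of -0.65. Pop1, the largest protein of the complex, had a difference of 0.37 that did not pass (limma adjusted p = 0.157). On slide 1 alone, with each array a sample, the Pop1 difference was 0.56. That fit has 1 adult array, and most of all probes tested passed in it. More genes of this list, and of most lists below, passed in it too, which does not set these lists apart.

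RNA polymerase III transcribes both of these RNAs. Of 19 genes for its subunits and for the factors of its small nuclear RNA type promoters, 3 were higher, 2 were lower and 14 did not pass, with a median of 0.27. The higher ones were the subunit Polr3g at 1.32, Snapc3, of the complex that binds such promoters, at 0.97, and the TATA-binding protein gene Tbp at 0.60. The lower ones were the subunits Polr3c at -0.74 and Polr3d at -0.60. The first gene of this list, Polr3a, was not among those tested. With normexp 2 of the 19 were higher and 0 lower.

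Next to Rpph1 the table places Parp2, a DNA repair enzyme whose span contains it. Parp2 had a difference of -0.11 (SE 0.13, limma adjusted p = 0.504), which did not pass. Of the flanking genes, Ccnb1ip1, of meiotic recombination, was higher by 2.07 and Tep1, a telomerase-associated protein, did not pass at 0.19 (limma adjusted p = 0.299). The Ccnb1ip1 value was 0.26 with normexp and did not pass (limma adjusted p = 0.288).

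Terc was lower in adult islets. Its level was -6.99, -6.00 and -6.40 on the adult arrays and -3.76, -3.68 and -3.72 on the P10 arrays. The adult values were more spread than the P10 values, with array 1 lowest, and no adult array reached a P10 array. The adult mean was -6.60 ± 0.56 (SD, n = 2) and the P10 mean -3.72 ± 0.0014 (SD, n = 2), which gave a change of -2.88 (SE 0.31, limma adjusted p = 0.00494), or 7.34-fold lower.

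Every Terc spot was well above background. Processed signals before scaling were 20.7, 31.9 and 23.1 on adult arrays, against 75.1, 75.6 and 76.0 on P10 arrays. The change at the 3 printed positions was -2.64, -2.75 and -2.85, and the third position was the dimmest on 5 of 6 arrays. On slide 1 alone, and with slide as a block, the change was -3.27. With normexp it was -1.59 and no longer passed (limma adjusted p = 0.0545).

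The partner of Terc moved the same way. Tert, the reverse transcriptase of telomerase, had -5.45, -4.95 and -5.02 on adult arrays and -3.27, -3.23 and -3.49 on P10 arrays. Its arrays did not overlap between stages, and the change was -1.84 (SE 0.23, limma adjusted p = 0.00676). With normexp it was -1.29 and, like that of Terc, no longer passed (limma adjusted p = 0.0593). Of 16 genes of telomerase and telomere maintenance measured, 3 were higher, 5 were lower and 8 did not pass, with a median of -0.26.

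The other lower members of this group were Pinx1, a telomerase inhibitor, at -1.18, the shelterin gene Acd at -0.99, the helicase gene Ruvbl1 at -0.76 and the assembly factor Naf1 at -0.56. The higher ones were the telomere-binding proteins Terf2ip at 1.33 and Terf1 at 0.92, and Nop10, a protein of the telomerase particle, at 0.54. For Terf2ip the spot on adult array 2 was flagged, so its value rests on adult arrays 1 and 3. Ruvbl1 had no value on adult array 3, so its adult level rests on adult arrays 1 and 2. Markers of cycling cells, given above, were lower on the same adult arrays, and their part was not tested. With normexp 2 of the 16 were higher and 1 was lower.

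Among the tested coding genes nearest to Terc, Mynn, a zinc finger protein, was lower by a change of -1.76 and Kcnmb2, a potassium channel subunit, was higher by 1.10, which with normexp was 0.66 and did not pass (limma adjusted p = 0.138). Neither is the adjacent coding gene in the table, as those were not tested.

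Gas5 was slightly lower in adult islets relative to the 75th percentile. Its level was 2.58, 2.75 and 2.70 on adult arrays and 3.28, 3.32 and 3.24 on P10 arrays, so the stages did not overlap. The adult mean was 2.65 ± 0.10 (SD, n = 2) and the P10 mean 3.27 ± 0.04 (SD, n = 2), which gave a change of -0.62 (SE 0.14, limma adjusted p = 0.0274), or 1.54-fold lower. On slide 1 alone, and with slide as a block, it was -0.70. Without P10 array 3, which leaves 1 P10 sample that is taken to vary like the adults, it was -0.65 and did not pass (limma adjusted p = 0.281).

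The direction of Gas5 depends on the scaling. Before scaling, its processed signals were 15678, 13791 and 12651 on adult arrays and 9897, 9635 and 9492 on P10 arrays, so that every adult array was the brighter. The change without scaling was 0.58 (limma adjusted p = 0.0415), an alternative chosen after seeing the data. The 75th percentile of log2 signal itself was 10.93 to 11.36 on adult arrays and 9.92 to 9.99 on P10 arrays, and without scaling the median change of all probes was 0.97. The Gas5 value of 0.58 lay below that median. With each array centred on its median the change was -0.32 and did not pass (limma adjusted p = 0.151).

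At its 3 printed positions Gas5 differed by -0.54, -0.62 and -0.66. The 8 adult spots used ran from 2.55 to 2.85 and the 9 P10 spots from 3.20 to 3.37. One spot on adult array 3 was flagged and left out, and at 2.74 it lay between the other spots of that array.

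**Figure D2:**
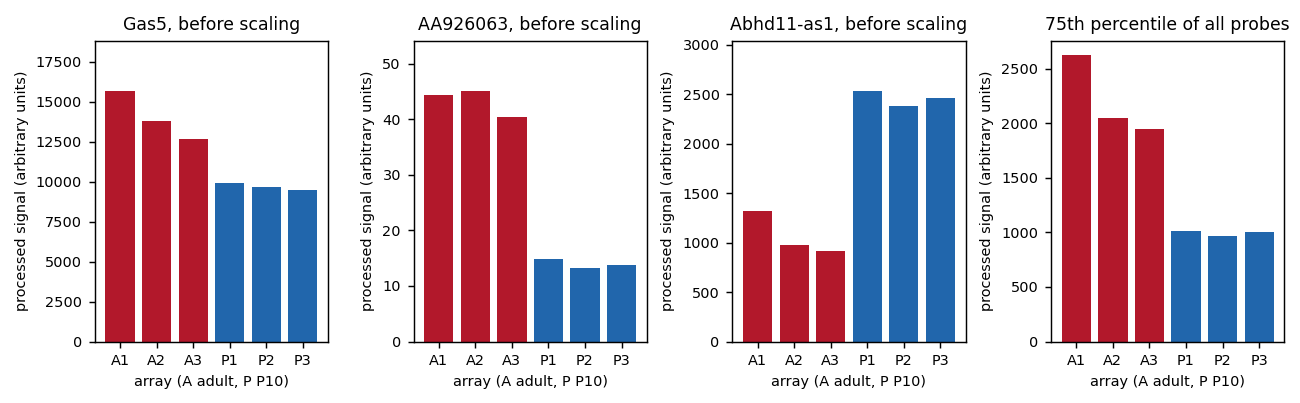
Processed signals before scaling, in arbitrary units on axes that start at 0, for Gas5, AA926063, Abhd11-as1 and the 75th percentile of all probes, with adult arrays A1 to A3 left of P10 arrays P1 to P3; bars in the gene panels are geometric means of the spots used. Gas5, AA926063 and the 75th percentile are brighter on all 3 adult arrays than on any P10 array, and Abhd11-as1 is dimmer.

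How many genes of the pathways that handle Gas5 passed depended on the setting. Of 7 nonsense-mediated decay genes measured, 0 were higher, 2 were lower and 5 did not pass, with a median of -0.41. The lower ones were Casc3, of the exon junction complex, at -1.50 and Smg9, a partner of the kinase Smg1, at -0.75. With quantile normalization 4 of the 7 were lower, and with normexp 1 was. The central helicase Upf1, which heads the list, was not measured.

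Of 6 proteins of the C/D box small nucleolar particle, 0 were higher, 2 were lower and 4 did not pass. These were the methyltransferase Fbl, with a change of -0.76 (SE 0.13, limma adjusted p = 0.0152), and the scaffold protein Nop56, with -0.88. With normexp 1 of the 6 was lower.

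Targets of the glucocorticoid receptor went both ways. Of 9 measured, 2 were higher, 4 were lower and 3 did not pass, with a median of -0.05. The enzyme Hsd11b1, which regenerates active glucocorticoid, was higher by 2.96 and the phosphatase Dusp1 by 2.09. The largest difference was in Pck1, a gluconeogenic enzyme, with -5.02, -4.89 and -5.05 on adult arrays and 5.66, 5.60 and 5.55 on P10 arrays, a change of -10.59 (SE 0.13, limma adjusted p = 0.00110). Enterocyte markers, at 9.98 to 10.7 in adults and 344 to 360 at P10, differed in the same direction, and their part in the Pck1 value was not tested. Per1 of the circadian clock at -1.02, the transcription factor Klf9 at -0.81 and the kinase Sgk1 at -0.80 were the other lower ones. With quantile normalization 3 of the 9 were higher and 3 lower. The receptor gene Nr3c1 was not among the genes tested.

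Zbtb37, a zinc finger gene that lies next to Gas5, had a difference of 0.69 that did not pass (limma adjusted p = 0.238). It passed, as higher, with quantile normalization (limma adjusted p = 0.0139), and was -0.40 with normexp (limma adjusted p = 0.502) and 0.10 on slide 1 alone (limma adjusted p = 0.798).

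Abhd11-as1 was lower in adult islets. Its level was -0.99, -1.07 and -1.09 on adult arrays and 1.32, 1.30 and 1.30 on P10 arrays. The 3 adult arrays were close to each other, as were the 3 P10 arrays, and the stages did not overlap. The adult mean was -1.04 ± 0.06 (SD, n = 2) and the P10 mean 1.31 ± 0.0055 (SD, n = 2), which gave a change of -2.34 (SE 0.13, limma adjusted p = 0.00169), or 5.07-fold lower.

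The signals before scaling, 1318, 978 and 915 on adult arrays and 2535, 2382 and 2468 on P10 arrays, were lower in adults as well. Its 3 printed positions gave -2.40, -2.34 and -2.33, and slide 1 alone, like slide as a block, gave -2.30. The call and the direction held in 18 of 18 alternatives, not all of them independent, with changes of -2.38 to -1.14.

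Abhd11 itself was not measured here. Of 5 genes of the Williams-Beuren region that were measured, 1 was higher, 3 were lower and 1 did not pass, with a median of -0.52. The tight junction genes Cldn3 at -1.29 (SE 0.13, limma adjusted p = 0.00431) and Cldn4 at -0.88 were lower, as was the exocytosis gene Stx1a at -0.52, and the Wnt receptor gene Fzd9 was higher by 1.62. Dnajc30, a mitochondrial protein gene, did not pass at -0.12. With normexp 0 of the 5 were higher and 1 was lower, Fzd9 standing at 0.41 (limma adjusted p = 0.138), Cldn4 at -0.86 (limma adjusted p = 0.0808) and Stx1a at -0.54 (limma adjusted p = 0.0759). Stx1a did not pass on slide 1 alone either, at -0.47 (limma adjusted p = 0.0572). Stx1a had no value on adult array 2, so its adult level rests on adult arrays 1 and 3. Stx1a and Cldn3 are also the nearest tested coding genes on the 2 sides of Abhd11-as1.

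Chchd4l1 was lower in adult islets. Its level was -5.61, -4.72 and -4.95 on adult arrays and -2.91, -2.93 and -3.18 on P10 arrays. Adult array 1 was the lowest, and no adult array reached a P10 array. The adult mean was -5.22 ± 0.55 (SD, n = 2) and the P10 mean -3.05 ± 0.18 (SD, n = 2), which gave a change of -2.17 (SE 0.32, limma adjusted p = 0.00994), or 4.51-fold lower.

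The spots of Chchd4l1 were the least even of the 7 probes. The second position was the dimmest on 5 of 6 arrays, and the range of spots within an array reached 0.84. The 3 positions still differed between stages by -2.06, -2.26 and -1.93, none overlapping. Slide 1 alone, and slide as a block, gave -2.61, and normexp gave -1.53, which did not pass (limma adjusted p = 0.0595).

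Chchd4, after which the gene is named, passed or not with the treatment of slides. It had 0.48, 0.06 and 0.12 on adult arrays and 0.23, 0.23 and 0.22 on P10 arrays, so the stages overlapped, with a difference of 0.06 that did not pass (SE 0.19, limma adjusted p = 0.810). With slide as a block it was 0.25 and passed (limma adjusted p = 0.0128), as it did on slide 1 alone (limma adjusted p = 0.0215). Of 10 genes of the import pathway of Chchd4 measured, 2 were higher, 3 were lower and 5 did not pass, with a median of -0.28. The small Tim chaperone gene Timm8a1 at -1.35, the sulfhydryl oxidase Gfer at -0.83 and the Chchd4 partner Aifm1 at -0.80 were lower. Another small Tim gene, Timm8b, at 0.93 and the copper chaperone Cox17 at 0.85 were higher. With normexp 2 of the 10 were higher and 2 lower. Of the nearest tested coding genes of Chchd4l1, Pdk3, a kinase of pyruvate dehydrogenase, was higher by 0.97 (0.42 with normexp, limma adjusted p = 0.179) and the zinc finger gene Zfx was lower by a change of -0.74.

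2810025M15Rikl was the gene that passed as higher in adult islets. Its level was 0.10, 0.12 and 0.07 on adult arrays and -1.002, -0.99 and -0.90 on P10 arrays, so every adult array lay above every P10 array. Over counted samples the adult mean was 0.10 ± 8.87e-05 (SD, n = 2) and the P10 mean -0.95 ± 0.07 (SD, n = 2), which gave a change of 1.04 (SE 0.13, limma adjusted p = 0.00705), or 2.06-fold higher. The very small adult SD is that of array 1 against the mean of arrays 2 and 3. Signals before scaling were 2803, 2224 and 2046 on adult arrays and 508, 489 and 537 on P10 arrays, so the stages did not overlap on either scale.

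The 9 adult spots of 2810025M15Rikl ran from -0.05 to 0.19 and the 9 P10 spots from -1.06 to -0.88. Its 3 printed positions gave 1.07, 1.08 and 1.03, and slide 1 alone, like slide as a block, gave 1.06. Without P10 array 3 the change was 1.09 and did not pass (limma adjusted p = 0.103). The adjacent coding gene Sec16b, of export from the endoplasmic reticulum, was lower by a change of -2.43, and on the other side Ralgps2, a Ral exchange factor, did not pass at 0.65 (limma adjusted p = 0.123). Ralgps2 passed at 1.40 with quantile normalization (limma adjusted p = 0.0394) and at 1.01 on slide 1 alone (limma adjusted p = 0.0155), and was -0.31 with normexp (limma adjusted p = 0.301).

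AA926063 did not pass the test, though its arrays did not overlap. Its level was -5.89, -5.50 and -5.60 on adult arrays and -6.10, -6.18 and -6.18 on P10 arrays. Every adult array was the higher, but adult array 1 lay closer to the P10 arrays than to adult array 2. The adult mean was -5.72 ± 0.24 (SD, n = 2) and the P10 mean -6.16 ± 0.03 (SD, n = 2), which gave a difference of 0.45 (SE 0.18, limma adjusted p = 0.102).

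Other settings moved AA926063 to either side. Its signals before scaling were 44.4, 45.1 and 40.3 on adult arrays and 14.8, 13.3 and 13.8 on P10 arrays. These P10 signals were about as dim as those of Rpph1 in adults, and on P10 array 2 only 2 of 3 spots were well above background. In the authors' deposited table of normalized log2 values AA926063 stood at 5.25, 5.11 and 5.13 on adult arrays and 3.98, 3.80 and 3.94 on P10 arrays. Quantile normalization gave 1.27 (limma adjusted p = 0.00265), slide 1 alone gave 0.27 (limma adjusted p = 0.0296), as did slide as a block (limma adjusted p = 0.0213), and normexp turned it to -0.46 (limma adjusted p = 0.341). Without adult array 1 it was 0.61 and passed (limma adjusted p = 0.00867).

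The 3 printed positions of AA926063 gave 0.63, 0.47 and 0.39, all higher in adults. Its lowest adult spot, at -5.93, lay just above its highest P10 spot, at -6.00. The 2 adjacent coding genes were Daxx, a histone chaperone, which did not pass at 0.17 (limma adjusted p = 0.558), and the mitotic kinesin gene Kifc1, which was lower by a change of -2.04. With slide as a block Daxx was 0.45 and passed (limma adjusted p = 0.00654), as on slide 1 alone (limma adjusted p = 0.0163).

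**Figure D3:**
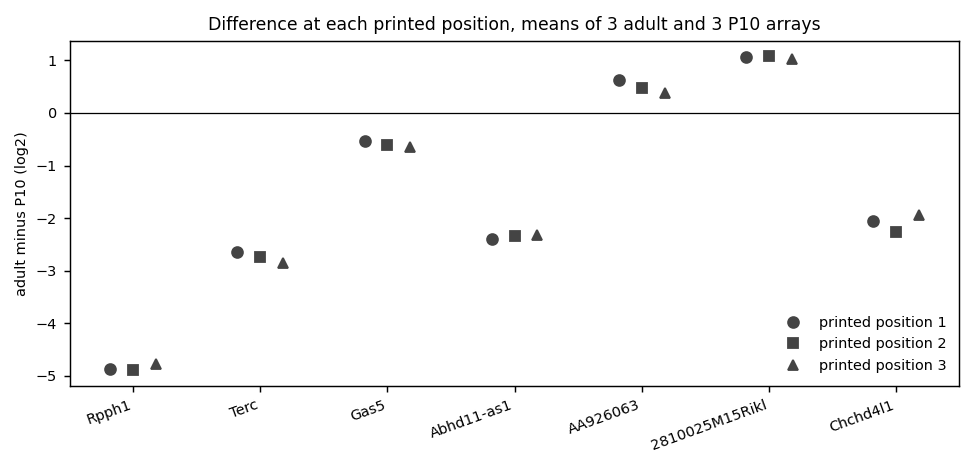
The vertical axis is the adult minus P10 difference in log2 at each of the 3 printed positions of a probe, and the symbols mark the position. Each is taken between the means of 3 adult and 3 P10 arrays, except position 1 of Gas5. There the spot on adult array 3 was flagged, and the adult mean rests on adult arrays 1 and 2. The 3 positions of a gene lie close together, from -4.77 to -4.89 for Rpph1 and from 0.39 to 0.63 for AA926063, and none crosses 0.

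The coding genes whose pattern over the 6 arrays was most like each RNA were found by the Euclidean distance between log2 levels centred on their 6-array mean, among 11397 named coding genes. For Rpph1 these were Slc23a1, a vitamin C transporter, at a distance of 0.22, the cell cycle inhibitor Cdkn1c at 0.27 and Lrrc7, of synapses, at 0.29. Nearest to Terc stood the class I antigen gene RT1-T18 at 0.12, the cytochrome Cyp4f4 at 0.21 and Tedc2 at 0.26. These distances are in log2 units over points that share arrays, and they describe likeness of pattern alone.

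Closest to Gas5 were Adap2 at 0.04, the Mediator subunit Med30 at 0.04 and the ATP synthase subunit Atp5f1e at 0.05, whose own change of -0.63 became 0.19 with quantile normalization. Abhd11-as1 was most like Chrne, an acetylcholine receptor subunit, at 0.06, and the cell cycle genes E2f1 and Ccnd2, both at 0.11. For AA926063 the nearest were Synrg at 0.06, the adenosine receptor Adora2a at 0.07 and the cholesterol transporter Abca1 at 0.07. The pattern of 2810025M15Rikl was nearest to Creld1 at 0.08, Ywhag, a 14-3-3 protein, at 0.10 and Tmem18 at 0.10. Chchd4l1 had as nearest the ammonium transporter Rhbg at 0.20, and Tonsl at 0.21 and Eme1 at 0.22, both of DNA repair.

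**Figure D4:**
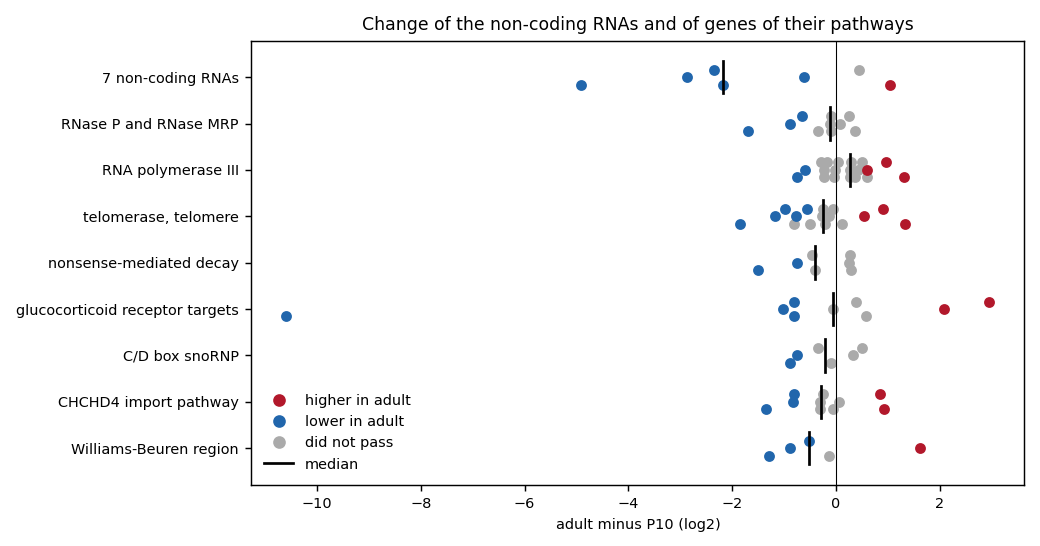
Each point is 1 gene, placed by its adult minus P10 change in log2, in rows for the 7 non-coding RNAs and for 8 lists of genes of their pathways or surroundings; red passed as higher in adults, blue as lower, grey did not pass, and a black bar is the row's median. The median of the 7 RNAs is -2.17, and those of the lists run from -0.52 to 0.27.

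The 7 RNAs differed in how far their calls depended on the processing. The tallies below are not of independent checks. A floor on dim signals and no filter on dim probes left the changes as they were, and slide as a block gave the same change as slide 1 alone. Rpph1 passed in 17 of 17 alternatives, with changes of -5.16 to -2.43. The authors' normalized values cover the other 6 but hold none for Rpph1, so that setting is missing for it. Abhd11-as1 passed in 18 of 18. Terc, Chchd4l1 and 2810025M15Rikl each kept their call in 17 of 18, Gas5 kept it in 14 and AA926063 kept its side of the threshold and its sign in 8. Small changes of the pathway genes depended on the scaling too: with each array centred on its median, Rpp38, Pop5, Polr3c, Polr3d, Ruvbl1, Naf1, Smg9, Fbl, Sgk1, Klf9, Gfer, Aifm1, Stx1a and Zfx kept their sign but did not pass.

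**Figure D5:**
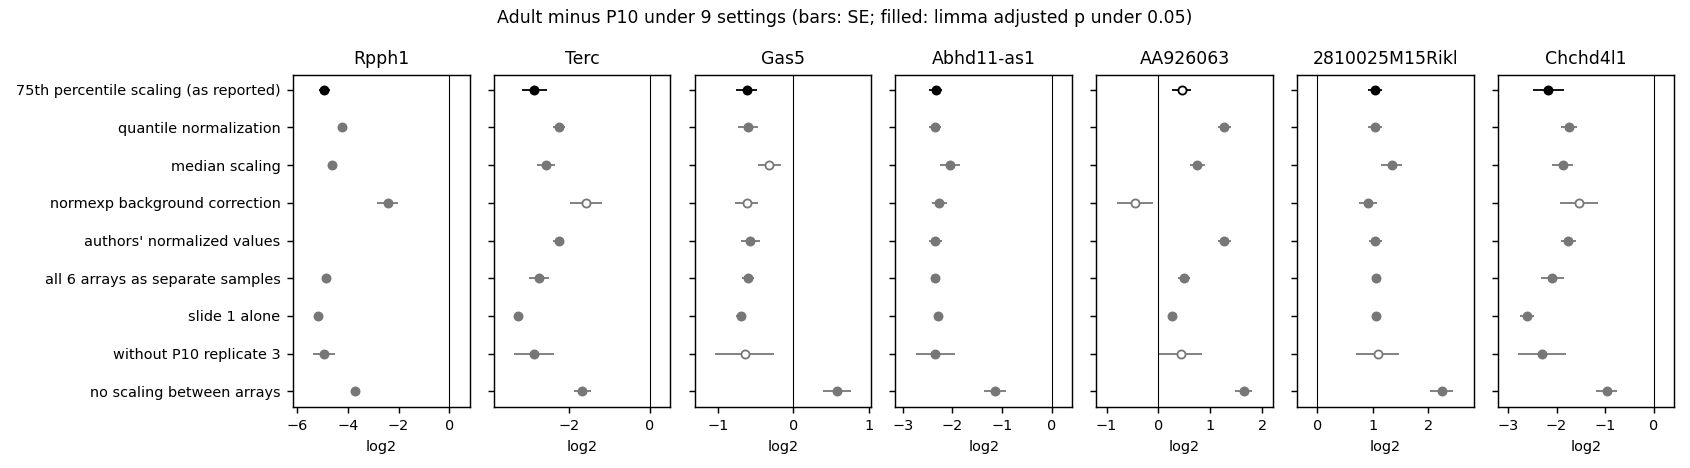
The horizontal axis of each panel is the adult minus P10 change in log2 (scaled per panel), with 1 row for the values as reported and 1 for each of 8 other settings; bars are SE, filled points have a limma adjusted p under 0.05, and the vertical line is 0. Rpph1 and Abhd11-as1 are filled and left of 0 in every row drawn, Gas5 crosses 0 without scaling, and AA926063 crosses it with normexp.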

How the data were processed

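Per the labels, islet RNA of 3 adult samples and 3 P10 pools was hybridised to 6 arrays. The deposited scanner files hold 1-colour spot intensity values, made by version 11.0.1.1 of Agilent Feature Extraction, according to the submitters' processing notes. Their processed intensity was background-subtracted within an array, per the file headers, with no scaling between arrays. Normalized log2 values were deposited too, and how the authors made them is not given in the sources used here. The 7 genes and the gene lists were chosen with earlier results of these data known.

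Flagged spots were left out and the log2 intensities of the remaining spots of a probe averaged, and the 75th percentile of each array was subtracted. An array counted a probe as well above background where more than 0.5 of its unflagged spots were, and probes so marked on all arrays of at least 1 stage were tested. Symbols came from RefSeq accessions matched to the GRCr8 gene table, which named 14291 of 24681 probes. The annotation on the array is of an earlier build, so neighbours and promoters are those of GRCr8. Arrays of a stage that differed by about spot noise were averaged. The contrast adult minus P10 was fitted in limma 3.58.1 (lmFit, eBayes; R 4.3.3), with a threshold of 0.05 on the Benjamini-Hochberg adjusted p. The fit was also run on simulated data with independent noise and no slide effect, which does not test the calls made here.

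Besides the 7 genes, the text names the nearest tested coding genes, the first gene and the 3 largest called changes of each list with any gene in a count of 5 or fewer, and the 3 genes of most like pattern. Some values that this rule or the marker lists cover are not reported here. Alternatives were quantile and median scaling, normexp (offset 50), the authors' values, no filter on dim probes, spot medians, all 6 arrays as samples, slide and replicate blocks, slide 1 alone, and leaving out each array. Normexp used the median spot signal, as no mean signal was used here. Same-numbered adult and P10 arrays did not deviate together (r of -0.32, 0.09 and -0.36 over probes), so the numbers do not pair them.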

Additional observations from a re-analysis of the deposited data

How the results depend on the processing

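AA926063, not called as reported, passed as higher at 0.50 with all 6 arrays as samples, 1.27 with quantile normalization, 0.75 with median scaling, 1.27 with the authors' values, and 0.27 with slide as a block or slide 1 alone. It was also higher at 1.65 without scaling, and turned to -0.46 with normexp. Gas5 no longer passed at -0.32 with median scaling and -0.62 with normexp, and turned to 0.58 without scaling. With normexp Terc at -1.59 and Chchd4l1 at -1.53 no longer passed, and 3 of the 7 genes were called in place of 6. The offset of 50 that normexp adds exceeds several of these signals. With the replicate block on all 6 arrays all 7 were called, AA926063 passing at 0.50 (limma adjusted p = 0.0427), and the block ended no call of the 7. Leaving out each array in turn gave -4.99 to -4.68 for Rpph1, -2.97 to -2.48 for Terc, -0.65 to -0.55 for Gas5, -2.38 to -2.33 for Abhd11-as1, 0.42 to 0.61 for AA926063, 1.03 to 1.09 for 2810025M15Rikl and -2.30 to -1.79 for Chchd4l1. Without P10 array 3, Gas5 and 2810025M15Rikl did not pass and 4 of the 7 were called, and without adult array 1 AA926063 did, giving 7. Over all probes, 3912 were higher and 5699 lower as reported, against 2127 and 2723 with normexp, 1577 and 2595 without P10 array 3, and 5585 and 9052 with slide as a block. Atp5f1e turned to 0.19 with quantile normalization and with the authors' values. For the 60 called genes among 71 others named, 852 values under the other settings kept their call, 90 no longer passed and 2 reversed. The cause of these shifts was not tested. Leaving out the scaling, and a floor on dim signals, were chosen after seeing the data. The floor was the lowest signal well above background on an array. Every value of the 7 genes lay at or above it, so it raised none of them and does not test their calls. Signal over background limits Rpph1 in adults, and AA926063 at P10 was about as dim.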
